A study of Saccharomyces cerevisiae with 6 samples.

Results

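The right arm of chromosome II of the budding yeast Saccharomyces cerevisiae is described here through the genes with systematic names beginning YBR, 1 probe set per gene. The arrays named 282 such genes. The set holds 241 of them, out of 5449 genes named on the arrays, after 41 were left out by symbol: genes of the cytosolic and mitochondrial ribosome (RPL, RPS, MRP), the PHO, KTR and CHS genes, and single genes such as HSP26, TPS1 and the histone genes HHF1 and HHT1. The arm was selected on its signals in the eos1 deletion against the wild type, which ran above those of the other chromosomes, so every eos1 value below is a description, counts of calls included, and none is offered as support. Of the 241 genes, 217 passed the filter on dim signals and 24 did not. The filter kept genes whose mean log2 signal over all arrays exceeded the 95th percentile of the probe sets that name no single S. cerevisiae gene, a signal of 91.8.

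The series compared 3 strains of the haploid laboratory yeast BY4741, with 2 arrays per strain from independent experiments, and its title places the work in zinc homeostasis. The first strain was a deletion of EOS1, whose product sits in the membrane of the endoplasmic reticulum and has been tied to N-glycosylation. The second was a deletion of IZH2, whose membrane protein product has been tied to zinc metabolism, and the third was the wild type, BY4741 itself. All cultures grew in YPD, a rich glucose medium, at 30 degrees Celsius and 150 rpm, were harvested in log phase at an optical density of 1.0, and gave total RNA that was hybridised to Affymetrix Yeast Genome 2.0 arrays. The labels do not say whether a deletion strain was 1 clone or several, so the spread between its 2 arrays may not include differences between clones.

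A chromosome arm carries genes of many unrelated functions, although some neighbours, such as the galactose genes of this arm, share a pathway. In a haploid cell each gene is present as 1 copy before replication, and the messenger RNA from most genes scales with gene copy number in yeast. Subtracting the median of an arm separates an offset shared by its genes from what single genes do. DNA copy number was not measured in the data used here.

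The deleted genes gave the signals that their labels call for. EOS1 had signals of 0.817 and 2.65 in eos1 deletion cells, 898 and 678 in izh2 deletion cells, and 672 and 733 in the wild type. IZH2 had 3.72 and 1.26 in izh2 deletion cells, 1901 and 1265 in eos1 deletion cells, and 3431 and 2530 in the wild type. The a-cell genes MFA1, MFA2, BAR1 and STE2 passed the filter, and LEU2, MET17 and URA3, which BY4741 lacks, did not. HIS3, a further marker without function in BY4741, passed, with 1594 and 1249 in eos1 deletion cells, 2544 and 1482 in izh2 deletion cells, and 2345 and 2248 in the wild type. The his3 allele of BY4741 is an internal deletion, and whether the probe set lies outside it was not tested. All 4 a-cell genes had lower signals on both eos1 deletion arrays than on the other 4 arrays. The arrays' medians over the 4907 tested genes ran from 554 to 792. Every array was therefore centred on its median over the 4555 tested genes of chromosomes other than II. The signals of genes given above and below are centred ones. Signals under 1 were set to 1 before centring, and the 0.817 of EOS1 is such a value, not a measured one.

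In the eos1 deletion nearly the whole arm was brighter. The shift of a gene is its mean log2 signal in a mutant minus that in the wild type. Its median over the 217 tested right-arm genes was 0.89, which is 1.85-fold, with quartiles of 0.63 and 1.13. Over the tested genes of other chromosomes the median was 0.01, with quartiles of -0.22 and 0.23. The first eos1 deletion array gave a median of 0.86 and the second 0.86, each against the wild-type mean. Of the right-arm genes 210, or 96.8%, lay above the median of the other chromosomes, and 7 had a shift below 0. In bulk cultures a brighter signal in every cell and one in some of the cells cannot be told apart, nor can more cells of a type and more RNA per cell. Against the izh2 deletion in place of the wild type, the eos1 deletion gave a median difference of 0.91 for the arm and -0.01 for the other chromosomes. The 39 tested right-arm genes that the choice by symbol left out had a median of 0.64 with wider quartiles of -0.06 and 0.91, and the 96 tested genes of the left arm had a median of 0.88.

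In the izh2 deletion the arm did not stand off. Its median shift was -0.02, with quartiles of -0.17 and 0.13, against 0.01 for the other chromosomes, and the arrays gave 0.01 and -0.03. This comparison used the same wild-type arrays as the eos1 one.

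**Figure D1:**
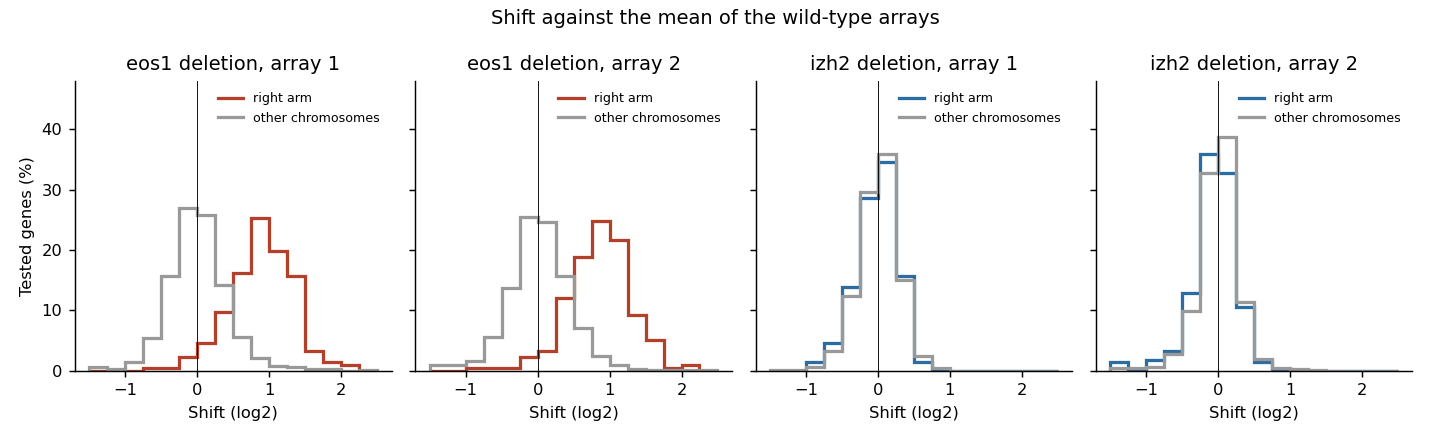
Share of tested genes (vertical axis, percent) by shift (horizontal axis, log2, in steps of 0.25, the end steps holding all values beyond them) on each mutant array, taken against the wild-type mean. Right-arm genes are drawn in colour and genes of other chromosomes in grey. On both eos1 deletion arrays the right-arm median is 0.86, and on the izh2 deletion arrays it is 0.01 and -0.03.

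With limma, 124 of the 217 right-arm genes (57.1%) were called higher in the eos1 deletion at an adjusted p under 0.05 and 0 were called lower, against 5.03% higher and 1.81% lower of all 4907 tested genes. The call rests on the contrast by which the arm was chosen, so nothing is read from it. With a single eos1 deletion array in the fit, whose spread is then assumed to be that of the other strains, 35 genes were called higher without the first array and 36 without the second. Both eos1 deletion arrays lay above both wild-type arrays in 195 right-arm genes (89.9%) and below both in 1 (0.461%), against 27.2% and 22.1% of all tested genes. Between the arrays of a strain, the median difference over the arm was -0.02 for the eos1 deletion, 0.03 for the izh2 deletion and 0.04 in the wild type.

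The shift ran along the whole arm. From the centromere outward, the genes numbered up to 100 had a median shift of 0.84 (n = 70), those numbered up to 200 had 0.88 (n = 74), and the rest had 0.93 (n = 73). The 10 tested genes nearest the centromere, YBR002C to YBR014C, had a median of 1.04, and the last 10, YBR287W to YBR302C, had 0.82. A running median over 15 neighbouring tested genes had 203 windows. Its lowest value was 0.60, in the window from TIP1 to IST2, and its highest was 1.16, from YBR219C to VHC1. In the izh2 deletion the same running median stayed between -0.19 and 0.11.

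**Figure D2:**
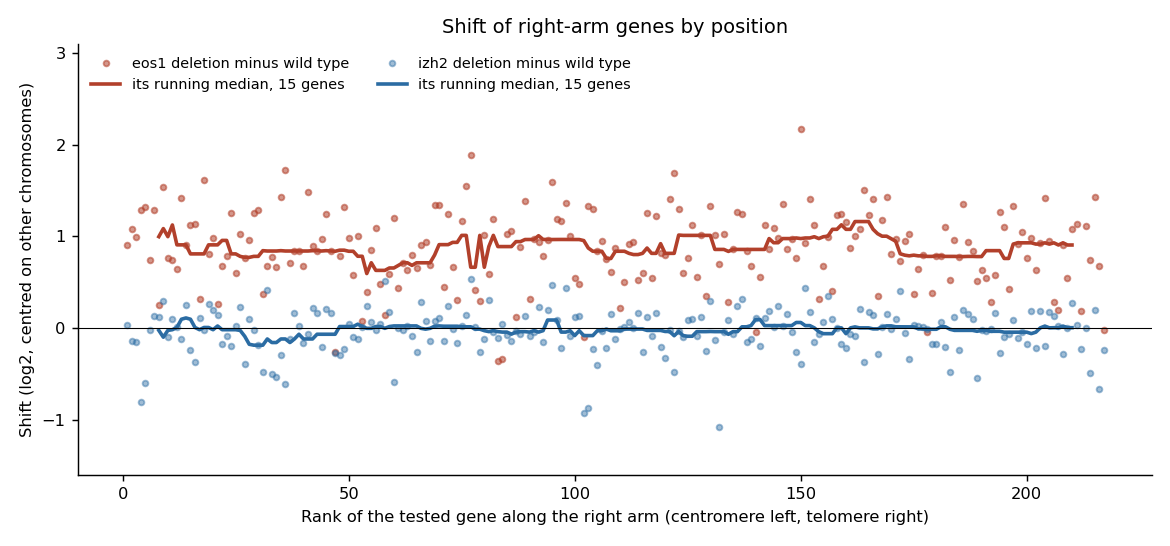
Shift of each tested right-arm gene (vertical axis, log2) by its rank along the arm from the centromere (horizontal axis), for the eos1 deletion in red and the izh2 deletion in blue. Points are genes and lines are running medians over 15 genes. The red line stays between 0.60 and 1.16 along the arm and the blue line between -0.19 and 0.11.

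Individual genes of the set, which leaves out some classes by symbol, departed from this common shift about as widely as genes elsewhere spread round their own median. The departure is a gene's shift minus the arm's median shift. The interquartile range of the shift was 0.50 on the arm and 0.45 on other chromosomes. Genes left out by symbol are not in the arm's values, while genes of the same classes stay in those of other chromosomes. The 39 tested genes left out had an interquartile range of 0.97, with shifts from -1.52 to 3.39. A departure within 0.5 was found for 171 right-arm genes (78.8%), against 84.8% of genes elsewhere taken from their own median. A departure of 0.5 or more upward was found for 18 right-arm genes (8.29%), against 7.97% elsewhere, and downward for 28 (12.9%), against 7.2% elsewhere. Across the right-arm genes the difference of the first eos1 deletion array from the first wild-type array correlated with that of the second pair at r = 0.67 (n = 217 genes). With the wild-type arrays exchanged r was 0.23. Genes on an array share its hybridisation, and the correlations were 0.65 and 0.26 over the genes of other chromosomes.

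Under a rule of size, 4 genes departed. The rule asks for a mean departure of at least 1 on the log2 scale and at least 0.5 to the same side on each eos1 deletion array. SDS24 departed upward (0.461% of the tested right-arm genes, against 1.41% on other chromosomes), and TIP1, LYS2 and TEF2 departed downward (1.38%, against 1.03%). With 1 and 3 genes, the arm's shares rest on too few genes to be compared with those elsewhere. Genes left out by symbol are again not counted on the arm. The count is unsteady: leaving out eos1 deletion array 1 or 2 gave 6 or 8 genes, and leaving out wild-type array 1 or 2 gave 6 or 9. With no filter on dim genes 8 departed, after quantile normalization 3 and with a stricter filter 1.

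SDS24 (YBR214W) encodes a protein that acts in cell separation during budding. It had signals of 2395 and 2412 in eos1 deletion cells, 527 and 317 in izh2 deletion cells, and 390 and 731 in the wild type. The eos1 deletion arrays were nearly equal and lay far above the other 4, which overlapped each other. Its shift of 2.17, or 4.50-fold, was the highest of the tested genes in the set, and its departure was 1.28. Among the tested right-arm genes left out by symbol the highest shift was 3.39. The size of the departure rested partly on the wild-type spread: against the second wild-type array alone it was 0.82, under the size asked for, and against the first alone it was 1.78.

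The 3 genes that departed downward had the lowest shifts of the tested genes in the set, all below 0. Among the 39 tested right-arm genes left out by symbol, the lowest shift was -1.52 and 11 were below 0. LYS2 (YBR115C) encodes alpha-aminoadipate reductase of lysine synthesis. Its signals were 1292 and 911 in eos1 deletion cells, 1745 and 951 in izh2 deletion cells, and 1257 and 1534 in the wild type. All 3 strains overlapped, and its shift was -0.36, a departure of -1.25 from the arm. Without the second eos1 deletion array the departure was -0.96, under the size asked for.

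TEF2 (YBR118W) encodes translation elongation factor EF-1 alpha, as does its near-identical copy TEF1 on another chromosome. Its signals were 8620 and 11960 in eos1 deletion cells, 12119 and 14407 in izh2 deletion cells, and 11318 and 14429 in the wild type. The eos1 deletion arrays overlapped the wild type and lay below both izh2 deletion arrays, with a shift of -0.33 and a departure of -1.22, or -0.96 without the first eos1 deletion array. It was -0.93 after quantile normalization and -0.84 with the stricter filter. No probe set used here is named for TEF1, and RNA from both genes cannot be told apart at this probe set. Its signals were also among the brightest: the highest deposited signal of any probe set ran from 12872 to 15598 over the arrays.

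TIP1 (YBR067C) encodes a mannoprotein anchored in the cell wall. Its signals were 5067 and 5237 in eos1 deletion cells, 6428 and 4045 in izh2 deletion cells, and 5939 and 6410 in the wild type. It was the 1 tested gene of the set with both eos1 deletion arrays below both wild-type arrays, by a shift of -0.26. The izh2 deletion arrays lay on either side. Its departure of -1.15 stayed beyond 1 when any 1 array was left out, but was -0.98 after quantile normalization and -0.77 with the stricter filter, under the size asked for.

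The genes just inside and just outside the rule differ little in size. Just outside on the upper side were AIM3, an actin-patch protein gene, with a departure of 0.995, then YRO2 with 0.83 and SSE2 with 0.80. AIM3 had signals of 180 and 277 in eos1 deletion cells, 101 and 76.8 in izh2 deletion cells, and 41.7 and 87.9 in the wild type. Both wild-type arrays lay under the filter level of 91.8, so AIM3 was tested only because of its eos1 deletion arrays. YRO2 encodes a membrane protein of the Hsp30 family, and its signals were 7106 and 4081 in eos1 deletion cells, 1367 and 834 in izh2 deletion cells, and 1537 and 1729 in the wild type. Its eos1 deletion arrays were well apart, yet both were above all other arrays, and both izh2 deletion arrays lay below both wild-type ones. SSE2 encodes an Hsp110 chaperone, with signals of 1277 and 1005 in eos1 deletion cells, 289 and 219 in izh2 deletion cells, and 288 and 428 in the wild type. The eos1 deletion stood above the rest, which overlapped.

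On the lower side ADH5, for an alcohol dehydrogenase, had a mean departure of -0.98, but its arrays disagreed. Its signals were 1846 and 646 in eos1 deletion cells, 806 and 470 in izh2 deletion cells, and 1380 and 984 in the wild type. The first eos1 deletion array was the highest of the 6 and the second was below both wild-type arrays. A disagreement of 0.75 or more between the eos1 deletion arrays was found for 7 tested right-arm genes (3.23%), against 3.71% on other chromosomes: UGA2, FMP23, YRO2, YBR085C-A, ADH5, RTC2 and YPC1. Next came ARO4 (departure -0.93), which encodes the first enzyme of aromatic amino acid synthesis, PGI1 (-0.93), for phosphoglucose isomerase, and the subtelomeric gene COS2 (-0.91). PGI1 had signals of 9314 and 11458 in eos1 deletion cells, 11027 and 11832 in izh2 deletion cells, and 9801 and 11492 in the wild type. Its strains overlapped, unlike most genes of the arm. COS2 belongs to a family of similar genes, and RNA of its relatives at the same probe set cannot be told apart from its own.

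**Figure D3:**
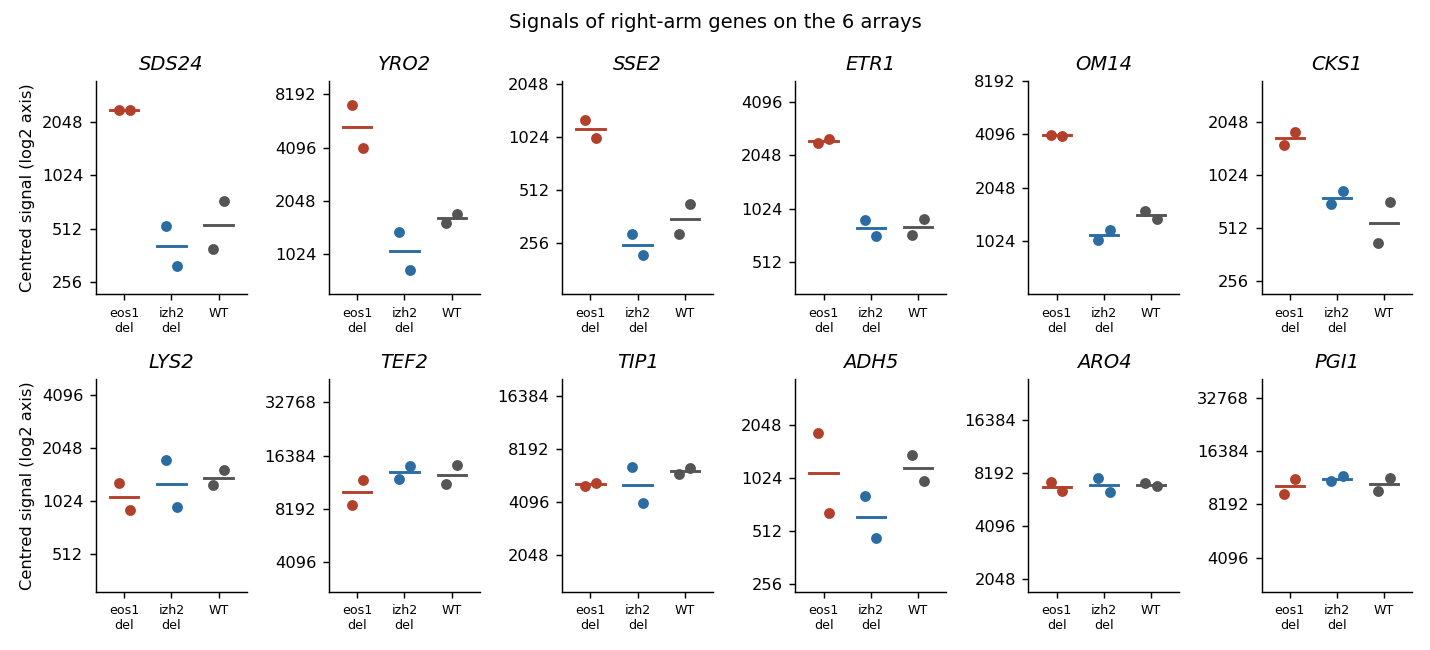
Centred signal (vertical axis, log2 scale spanning the same 16-fold range in each panel) of 12 right-arm genes on the 6 arrays, with the eos1 deletion left, the izh2 deletion next and the wild type (WT) right. Points are arrays and bars are geometric means. SDS24 has 2395 and 2412 in the eos1 deletion against 390 and 731 in the wild type, and the eos1 deletion overlaps the wild type for LYS2, TEF2 and PGI1.

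The departures followed the brightness of the probe sets. Tested genes were divided into 4 bins of nearly equal size by wild-type signal, with boundaries at 311, 624 and 1490. From the dimmest to the brightest bin the median eos1 shift of right-arm genes was 1.13, 0.96, 0.85 and 0.48. The medians of the other chromosomes declined likewise, at 0.20, 0.05, -0.05 and -0.19, so that the excess of the arm over them was 0.92, 0.90, 0.90 and 0.67. In the izh2 deletion the arm's medians in these bins were -0.02, 0.01, -0.03 and -0.01. Of the 28 right-arm genes that departed downward by 0.5 or more, 20 were among the 51 in the brightest bin. Of the 18 that departed upward, 1 was in that bin and 14 were among the 107 in the dimmer bins, below 624. The part of signal saturation or background in this gradient was not tested. The filter used the mean over all arrays, so genes dim in the wild type could pass through their eos1 deletion signals, as AIM3 did. How far this raised the shifts in the dimmest bin was not tested either.

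**Figure D4:**
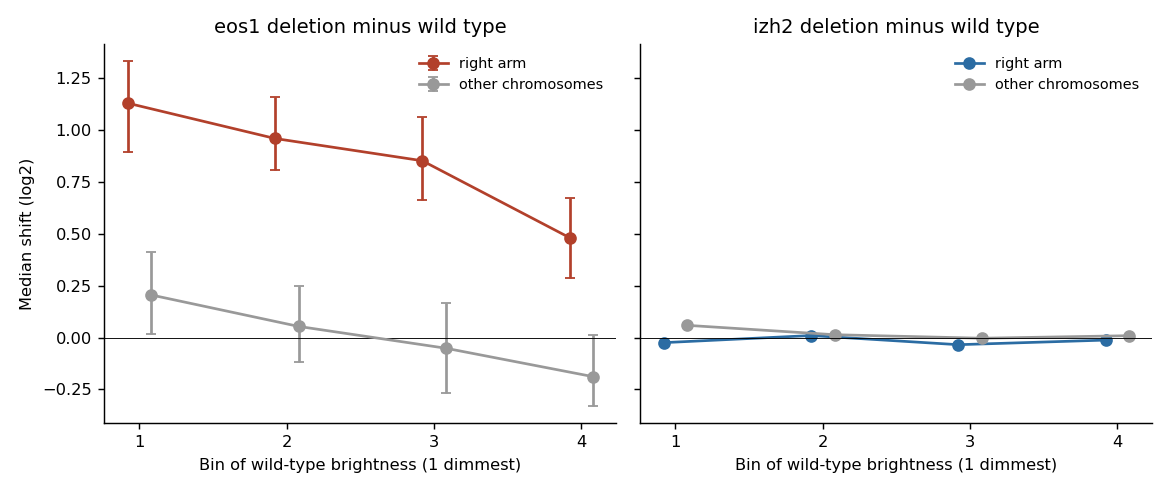
Median shift (vertical axis, log2) of right-arm genes, in colour, and of other chromosomes, in grey, by bin of wild-type signal (horizontal axis, 1 the dimmest), for the eos1 deletion on the left and the izh2 deletion on the right. Bars in the left panel are quartiles over genes. The eos1 medians of the arm go 1.13, 0.96, 0.85 and 0.48 from the dimmest to the brightest bin.

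Taken from the arm's median within its own brightness bin, a choice made after seeing the data, a different set stood out. YRO2 (1.24) and SDS24 (1.21) departed upward, 0.922% of the arm against 1.1% elsewhere, and LYS2 (-1.21) departed downward, 0.461% against 1.08%. TEF2 and TIP1 were at -0.81 and -0.74. SDS24 and LYS2 thus met the rule of size on both scales.

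By role, the medians of 18 lists of right-arm genes lay between 0.28 and 1.42, beside the arm's 0.89. The lists were drawn up from general knowledge of gene function and together hold 162 of the tested genes. They are described by counts and medians alone. Where not given below, median departures within the brightness bins above were 0.16 for transporters and 0.13 for mitochondrial genes. The values were 0.02 for replication and the cell cycle, 0.01 for mating, meiosis and sporulation, and 0.01 for maltose use. RNA processing had -0.02, amino acid, vitamin and nitrogen metabolism -0.02, protein folding and degradation -0.01, and kinetochore and spindle -0.19. GAL1, alone in its list, had 0.29. Only 4 lists hold a gene that departed under the rule of size.

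Lists of DNA metabolism had medians above the arm's, except kinetochore and spindle genes at 0.76. All 7 DNA repair genes lay above it, with a list median of 1.25. Of these 6 were in the dimmer bins, where the arm's medians were higher, and within bins their median departure was 0.13. They ran from RDH54, for a DNA translocase of recombination, with a shift of 0.98, to MMS4, for a subunit of the Mus81 endonuclease, with 1.34. MMS4 had signals of 245 and 249 in eos1 deletion cells, 95 and 116 in izh2 deletion cells, and 117 and 81.3 in the wild type. The eos1 deletion stood clear of the other strains, which overlapped, in a probe set of the dimmest bin. The 12 genes of replication and the cell cycle had a median of 0.91. CKS1, for a subunit that binds the kinase Cdc28, was the highest, at 1.59, with signals of 1519 and 1796 in eos1 deletion cells, 699 and 830 in izh2 deletion cells, and 420 and 717 in the wild type. AMN1, which encodes an inhibitor of mitotic exit, was the lowest at 0.22. Of the 3 tested kinetochore and spindle genes, IML3 had a shift of 1.55 and DAD3 had 0.35.

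Genes of chromatin and transcription had a median near the arm's. Their 26 tested members had a median of 0.85, with 14 of them below the arm's median, and 0 departed. Of these 21 were in the dimmer bins, and within bins 20 were below the arm's median, with a median departure of -0.17. MED8, of the Mediator complex, was the highest at 1.25. The lowest was TEC1, a transcription factor of filamentous growth that acts with Ste12, at 0.15. TEC1 had signals of 321 and 508 in eos1 deletion cells, 505 and 540 in izh2 deletion cells, and 309 and 431 in the wild type. The eos1 deletion overlapped both of the other strains. The 8 RNA processing genes had a median of 0.91, from PRP6 at 0.71 to ECM2 at 1.25, both for splicing factors.

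Translation genes stood low. Of 10 tested, 9 lay below the arm's median, and the list median was 0.53. Of these genes 5 were in the brightest bin, where the arm's own median was 0.48. Taken from the arm's median in the same bin, the list's median departure was -0.14, with 9 genes below. RKM3, for a methyltransferase of a ribosomal protein, was the highest at 0.99, and TEF2 the lowest. The 6 genes of carbon metabolism and reductases had the lowest list median, 0.28. All were in the brighter bins, 4 of them in the brightest, and their median departure within bins was -0.20. Their spread was wide, from ADH5 at -0.09 to ETR1, for a reductase of mitochondrial fatty acid synthesis, at 1.61. ETR1 had signals of 2399 and 2536 in eos1 deletion cells, 885 and 717 in izh2 deletion cells, and 729 and 891 in the wild type. The eos1 deletion stood clear of the rest.

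The 17 mitochondrial genes had a median of 1.03. OM14, of the outer membrane, had signals of 4046 and 4036 in eos1 deletion cells, 1040 and 1179 in izh2 deletion cells, and 1502 and 1354 in the wild type, a shift of 1.50. The eos1 deletion arrays lay above all others, and the izh2 deletion arrays below both wild-type ones. CTP1, for the citrate carrier, was the lowest of the list at 0.19.

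Genes of the membrane system stood below the arm's median more often than above it. Of 16 tested genes of secretion, the vacuole and autophagy, 11 were below, with a list median of 0.69. They ran from SSH1, a relative of the translocon gene SEC61, at 0.29, to VPS15, for a kinase of vacuolar sorting, at 1.34. Of 10 lipid and sphingolipid genes 7 were below, also with a median of 0.69, from TSC10, of sphingolipid synthesis, at 0.28 to CST26, for an acyltransferase, at 1.03. The 7 genes of the cell wall, GPI anchors and glycosylation had a median of 0.74. They ran from TIP1 to ROT2, for the catalytic subunit of glucosidase II, which trims N-glycans, at 1.08. These lists had 6, 5 and 4 genes in the brightest bin, and within bins their median departures were -0.00, 0.00 and 0.04.

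Among nutrient and stress genes the median was 0.79 for 10 genes of amino acid, vitamin and nitrogen metabolism, from LYS2 to UGA2, of GABA breakdown, at 1.33. It was 1.12 for 7 transporters, from PCA1, a cadmium pump, at 0.74 to VHC1, a vacuolar cation-chloride carrier, at 1.43. The 11 genes of protein folding and degradation had a median of 0.88, from APE3, for a vacuolar aminopeptidase, at 0.20 to SSE2 at 1.69. The 7 stress-related genes had a median of 1.33, with 5 of them above the arm's median and a median departure of 0.29 within bins. They ran from YSA1, a nucleotide-sugar hydrolase, at 0.29 to SDS24. Their median shift was that of RTC2, whose eos1 deletion arrays disagreed, at 2.00 and 0.66. In rich glucose medium the galactose genes are repressed. GAL1, for galactokinase, passed the filter, with signals of 260 and 280 in eos1 deletion cells, 101 and 85.6 in izh2 deletion cells, and 95.2 and 107 in the wild type, a shift of 1.42. All of these stood low, and the eos1 deletion was apart from the others.

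The maltose locus lies near the end of the arm. MAL33, for its activator, had a shift of 1.43, and MAL31, for a permease, had 0.68. MAL31 resembles permease genes of other MAL loci, and their RNA may reach its probe set. Of the 2 tested genes of mating, meiosis and sporulation, out of 6 listed, MUM2 had a shift of 0.85. GIP1, for a phosphatase subunit of sporulation, had 1.25, with signals of 162 and 182 in eos1 deletion cells. Its signals were 63.9 and 78.3 in izh2 deletion cells and 70.3 and 73.7 in the wild type. Both of these strains lay under the filter level of 91.8, so GIP1 was tested only because of its eos1 deletion arrays.

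Counterparts on other chromosomes give a gene-by-gene comparison. Of 31 right-arm genes with a listed paralogue elsewhere, 27 had both tested. In 25 of these the right-arm gene had the higher eos1 shift, in 21 of them on both arrays. The median difference was 0.65, with quartiles of 0.40 and 1.00, and in the izh2 deletion it was -0.00, with the right-arm gene higher in 13 pairs. The exceptions, named after their values were seen, were PYC2 and UBC4. PYC2, for pyruvate carboxylase, had a shift of 0.32 and its paralogue PYC1 had 0.96. UBC4, for a ubiquitin-conjugating enzyme, had 0.48 and its paralogue UBC5 had 0.63. The eos1 deletion arrays disagreed for UBC4, with differences from UBC5 of -0.42 and 0.13. For PYC2 they were -0.56 and -0.72 from PYC1. Signal between similar paralogues can cross at the probe sets, which was not tested.

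In 7 pairs the shifts differed by at least 1. SDS24 with SDS23 differed by 2.05, SHM1 with SHM2 by 1.90, YRO2 with MRH1 by 1.88 and SSE2 with SSE1 by 1.68. In the pair of SHM1, for mitochondrial serine hydroxymethyltransferase, most of the difference lay in the cytosolic enzyme's gene SHM2, which had a shift of -1.27, while SHM1 had 0.64. MNN2 with MNN5, for mannosyltransferases, differed by 1.18, NHP6B with NHP6A, for chromatin proteins, by 1.14, and SMP1 with RLM1, for transcription factors, by 1.01. Among the 4 widest pairs, SDS23, MRH1 and SSE1 had shifts of 0.12, -0.16 and 0.01, so there the right-arm gene carried the difference.

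Subunits of shared complexes gave the same order, which was likewise largely set by the choice of the arm. In 17 complexes, 20 tested right-arm genes were each above every tested partner encoded off chromosome II. Their median shift was 0.83, and the medians of their partners ran from -0.29 to 0.25. MCM7, of the replicative helicase, had a shift of 0.98, while its 4 tested partners ran from -0.14 to 0.21. VMA2, of the vacuolar proton pump, had only 0.32, but its 13 partners ran from -0.41 to 0.02. The difference was smallest for PDB1, of pyruvate dehydrogenase, at 0.37, and largest for POP4, of RNase P and RNase MRP, at 1.17. In the izh2 deletion the median shift of the 20 genes was 0.04. Several of these genes share a complex, and all share the arrays, so they are not independent of each other.

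**Figure D5:**
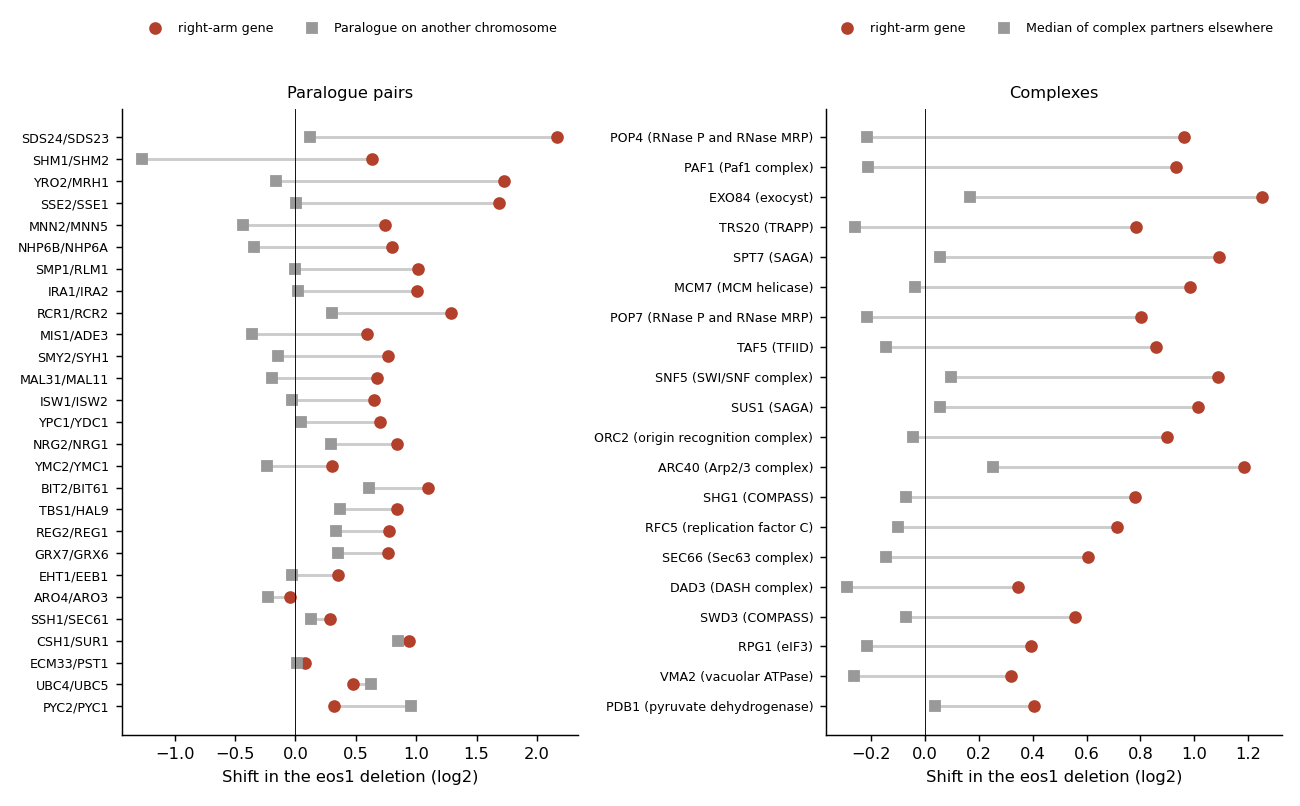
Eos1 deletion shift (horizontal axis, log2) of right-arm genes, red circles, beside that of their paralogue on another chromosome (left panel, 27 pairs) or the median of their complex partners elsewhere (right panel, 20 genes in 17 complexes), grey squares. A line joins each pair. The circle lies right of the square except for PYC2 and UBC4.

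The izh2 deletion gave no call on the arm. Limma called 0 right-arm genes higher and 0 lower at an adjusted p under 0.05, and among all tested genes 0% were called higher and 0.0204% lower, the 1 lower gene being IZH2 itself. At an unadjusted p under 0.05, 0 right-arm genes were higher and 5 lower (2.3%), against 2.32% of all tested genes in both directions. Both izh2 deletion arrays lay above both wild-type arrays in 24 right-arm genes (11.1%, against 13.5% of all tested genes) and below in 35 (16.1%, against 12.2%).

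Under the same rule of size, 0 right-arm genes departed upward in the izh2 deletion, against 0.022% elsewhere, and 1, YPC1, departed downward (0.461%, against 0.439%). YPC1, for an alkaline ceramidase, had signals of 465 and 251 in izh2 deletion cells, 1688 and 818 in eos1 deletion cells, and 827 and 633 in the wild type. Both izh2 deletion arrays were below all others, although they differed from each other, and the log2 difference was -1.08 (SE 0.38, limma adjusted p = 0.999). RCR1, for a protein of chitin deposition, had the smallest unadjusted p of the set. Its signals were 617 and 685 in izh2 deletion cells, 2894 and 2673 in eos1 deletion cells, and 1411 and 920 in the wild type. The 3 strains did not overlap, and the izh2 difference was -0.81 (SE 0.22, limma adjusted p = 0.999). MAL31 (-0.67) and PCA1 (-0.49) followed, and on the other side TEC1 (0.52), CKS1 (0.47), HPC2 (0.44), which encodes a subunit of the HIR histone chaperone, and YBR220C (0.35), all with the same adjusted p.

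Of the 24 right-arm genes under the filter, 15 were below 91.8 on all 6 arrays, among them the mating gene FIG1. For COS111 (YBR203W), both eos1 deletion arrays were above that level and the other 4 below it, with signals of 494 and 331 in eos1 deletion cells, 29.3 and 78.7 in izh2 deletion cells, and 49.4 and 31.6 in the wild type. Taken against the filter level, COS111 was at least 4.41-fold higher in the eos1 deletion. The same held for EDS1 (YBR033W), for a putative zinc cluster protein, with 215 and 154 in eos1 deletion cells, 40.2 and 25.4 in izh2 deletion cells, and 48.7 and 37.5 in the wild type, at least 1.98-fold. ATG14 and YBR284W also had both eos1 deletion arrays above the level. The remaining galactose genes stayed dim, GAL7 with 130 and 79.7 in eos1 deletion cells, 34.7 and 42.1 in izh2 deletion cells, and 55 and 46.4 in the wild type, and GAL10 with 54.9 and 55.3 in eos1 deletion cells, 29.7 and 26.9 in izh2 deletion cells, and 44.8 and 19.0 in the wild type. MAL32, for maltase, had 67.4 and 64.4 in eos1 deletion cells, 49.5 and 31.2 in izh2 deletion cells, and 43.9 and 51.4 in the wild type. These genes were not tested and enter none of the medians above.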

How the data were processed

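Per the series' matrix the authors deposited signal intensity on a linear scale, as 1 value for each of 10928 probe sets on 6 arrays. The submitters' processing notes name GCOS without a version, and the design text names GeneSpring 7.3.1 for statistics. The scaling between arrays is not stated there. Names came from the platform annotation and the R64 gene table: 5498 probe sets name 1 gene, and for 47 genes with several probe sets, 2 of them members, the brightest on average was used. Signals were floored at 1, taken to log2 and centred per array on tested genes off chromosome II. All 6 arrays entered 1 fit (limma 3.58.1, R 4.3.3, lmFit with contrasts.fit, then eBayes using an intensity trend), which had 3 residual and 6.00 prior degrees of freedom. Tests were two-sided, with Benjamini-Hochberg adjustment over the 4907 tested genes. The scripts were tested on simulated data.

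Genes named are those that depart, the highest and lowest of each role list, the 4 smallest p in each direction in the izh2 deletion, and paralogues differing by at least 1. Other genes are named as neighbours of the rule's limits or after their values were seen. Members and lists were chosen with earlier results of these data known. Promoter motifs were not analysed here. Alternatives were other centrings, quantile normalization, other filters and floors, the mean of probe sets, a replicate block, no trend, and leaving out each array.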

Additional observations from a re-analysis of the deposited data

How the results depend on the processing

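The median eos1 shift of the arm was 1.06 with no centring, 0.83 with centring on all tested genes, 0.892 with no filter, 0.65 with a stricter filter at the 99th percentile and 0.90 with the mean of probe sets, and 0.85 to 0.89 when 1 array was left out. Relative to other chromosomes it was 0.885 after quantile normalization, 0.68 with the stricter filter, 0.89 with the mean of probe sets, and 0.84 to 0.90 when 1 array was left out. The stricter filter kept 54 right-arm genes, since its background holds bright control probe sets, and 29 of them were called higher in the eos1 deletion. The izh2 shift was -0.14 with no centring and 0.013 with the stricter filter. Departures numbered 2 higher and 1 lower after quantile normalization, 4 higher and 4 lower with no filter and 0 lower with the stricter filter, which SDS24 and LYS2 did not pass, and 1 to 5 higher and 3 to 5 lower when 1 array was left out. Calls higher in the eos1 deletion ran from 35 to 107 when 1 array was left out.

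Same-numbered arrays deviated together at r = 0.48 for the eos1 deletion with the wild type and 0.09 for the eos1 with the izh2 deletion. For the izh2 deletion with the wild type r was -0.34, so the numbers did not pair all strains alike. The labels do not say whether same-numbered arrays belong together. With the replicate block 119 right-arm genes were called higher in the eos1 deletion and 1 lower, TEF2. With the izh2 numbers crossed, a choice made after seeing the data, 163 were called higher. Of 16 alternatives 6 cannot move an eos1 shift of a tested gene: both blocks, no trend, the floor of 16 and leaving out either izh2 array. Under the other 10, 317 of 460 shifts of named genes moved by less than the SD between arrays and 143 by more. The sign changed in 8 values of 3 genes whose shifts lie near 0. ADH5 (-0.09) was at 0.08 with no centring, 0.05 with the stricter filter and 0.15 and 0.66 without the first wild-type or the second eos1 deletion array. TEC1 (0.15) was at -0.09 and -0.19 without those arrays, and CTP1 (0.19) at -0.08 and -0.07 without the second wild-type or the first eos1 deletion array. The 2 arrays a strain and the brightness of a probe set over background limit each single value.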
